A study of Rattus norvegicus with 36 samples.

Results

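The Trpc genes encode canonical transient receptor potential channels, a family of non-selective cation channels that let calcium and sodium into cells. They were chosen by name: 6 of the 27308 genes counted in these lungs carry such a name. Of these, 5 are described here, of which 3 had enough reads to test (Trpc2, Trpc4 and Trpc6) and 2 did not (Trpc5 and Trpc7). Channels of the TRPC family open downstream of receptors that signal through the G protein Gq and phospholipase C. TRPC6 and TRPC7 are close relatives gated by the lipid diacylglycerol, which phospholipase C releases, and TRPC4 and TRPC5 are close relatives of each other. In pulmonary artery smooth muscle, TRPC6 carries cation entry during acute hypoxia, and mice without Trpc6 lack acute hypoxic vasoconstriction in the lung.

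Lung RNA was sequenced in 36 libraries from rats of 200 to 240 g that carried HuSlc39a12, a knock-in on the Sprague Dawley background in which the human form of the gene replaces the rat form (the gene encodes ZIP12, which carries zinc into cells). All 3 arms shared that genotype, and each arm held 12 libraries, 6 of males and 6 of females. Rats in the first arm breathed 10% oxygen at normal pressure for 2 weeks and received APL-9796, an antibody against ZIP12, at 10 mg/kg into the peritoneum from 48 h before hypoxia and then every 3 days. Rats in the second arm had the same hypoxia and the same schedule of a control IgG. The third arm was kept in normoxia, and its labels give no antibody. The effects of oxygen and of control IgG therefore cannot be told apart in a comparison of the IgG arm with normoxia. Nothing in the labels ties each library to its own animal, so p-values measure the spread between libraries, and this spread may be technical.

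Total counts ran from 6067593 to 20801302 per library. The row of the rat Slc39a12 gene held 0 counts over all 36 libraries. How reads of the human gene were treated is not stated in the labels or files, so this row does not check the knock-in. The 4 alveolar type II cell markers with a row summed to between 12455 and 41656 CPM (counts of a gene relative to the scaled total of its library) in every library, so the tissue carried the defining transcripts of lung. Libraries came from 3 sequencing runs, called A, B and C, with 26, 9 and 1 libraries. Run A held 10 of the APL-9796 libraries, 7 of the IgG libraries and 9 of the normoxic libraries. Runs were also uneven between the sexes. Run B held 4 of the 6 IgG females and 1 of the 6 IgG males. All 6 normoxic males were in run A, and the 1 library of run C was normoxic female 8. Comparisons within females and between the sexes are therefore partly tied to the run. Some libraries stood apart from their group in an earlier description of these data: normoxic females 8 and 9, and 3 hypoxic libraries rich in fat or muscle transcripts (IgG male 6, IgG female 11 and APL-9796 male 5).

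Trpc6 was higher in hypoxic lungs than in normoxic lungs, in both sexes and with either antibody. Its level ran from 15.2 to 34.5 CPM in lungs with hypoxia and APL-9796, with a median of 28.6 CPM. In lungs with hypoxia and IgG it ran from 20.3 to 32.02 CPM, with a median of 26.4 CPM. In normoxic lungs it ran from 12.65 to 19.3 CPM, with a median of 15.7 CPM. All 12 IgG libraries lay above the highest normoxic library, and so did 11 of the 12 APL-9796 libraries. The exception was APL-9796 male 4, which had 15.2 CPM from 102 counts, was sequenced in run B, and lay within the normoxic range. The 2 hypoxic arms overlapped over most of their range. The share of all genes that separate hypoxic from normoxic libraries in this way was not counted. Nothing particular to Trpc6 is read from that separation.

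**Figure D1:**
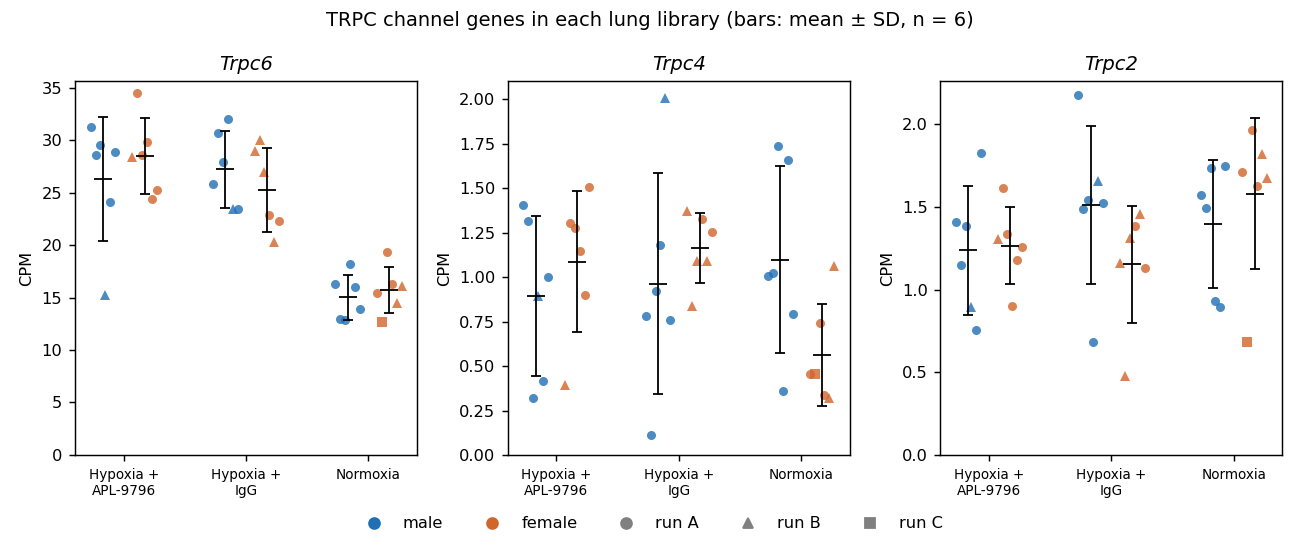
Levels of Trpc6, Trpc4 and Trpc2 in each of the 36 libraries, in CPM on a linear axis that starts at 0. Points are libraries, colour gives sex and shape gives the sequencing run, and black bars give the mean and SD of the 6 libraries of each sex and arm. For Trpc6 every hypoxic library but 1 lies above the highest normoxic library at 19.3 CPM, whereas the arms overlap for Trpc4 and Trpc2.

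Mean Trpc6 was 26.2 ± 3.78 CPM with hypoxia and IgG and 15.4 ± 2.10 CPM in normoxia (SD, n = 12 each). This was a rise of 1.70-fold (95% interval 1.49 to 1.94), or 0.77 ± 0.095 on the log2 scale (SE), with an adjusted p of 2.4e-07 by edgeR's quasi-likelihood test. Adjusted p-values, written FDR below, are Benjamini-Hochberg values over all 15570 genes tested, and a gene was called at FDR under 0.05. Of Trpc2, Trpc4 and Trpc6, only Trpc6 was called, and 12.5% of all genes tested were called in this comparison, 6.31% as higher and 6.19% as lower. Of all genes tested, 98.0% had a lower signed log2 difference than Trpc6, a share that includes the genes that fell. In whole lung, more cells of a type that carries the transcript and more transcript per cell cannot be told apart.

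With APL-9796 in place of IgG, mean Trpc6 in hypoxia was 27.4 ± 4.81 CPM (SD, n = 12). Against normoxia this was 1.78-fold higher (1.56 to 2.03), with a log2 difference of 0.83 ± 0.095 and an FDR of 3.9e-08. Again only Trpc6 of these 3 genes was called, where 18% of all genes were called, 9.08% as higher and 8.93% as lower. The comparisons of each hypoxic arm with normoxia share the normoxic libraries and are not independent of each other.

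None of these 3 genes passed the test between APL-9796 and IgG in hypoxia. For Trpc6 the log2 difference was 0.07 ± 0.093, with a 95% interval of -0.12 to 0.25 and an FDR of 0.973. On the linear scale that interval spans 0.918-fold to 1.19-fold. In this comparison edgeR called 0% of all genes, with 626 genes at an unadjusted p under 0.05 and a lowest FDR of 0.967, whereas DESeq2 called 1 gene and limma-voom called 0. Trpc2, with few counts, differed by -0.07 ± 0.19 (-0.46 to 0.32) and Trpc4 by -0.11 ± 0.27 (-0.66 to 0.44). The data are compatible with true differences inside these intervals, which are not limits of detection. For Trpc4 the interval leaves room for a change of 1.36-fold upward or to 0.631-fold downward.

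**Figure D2:**
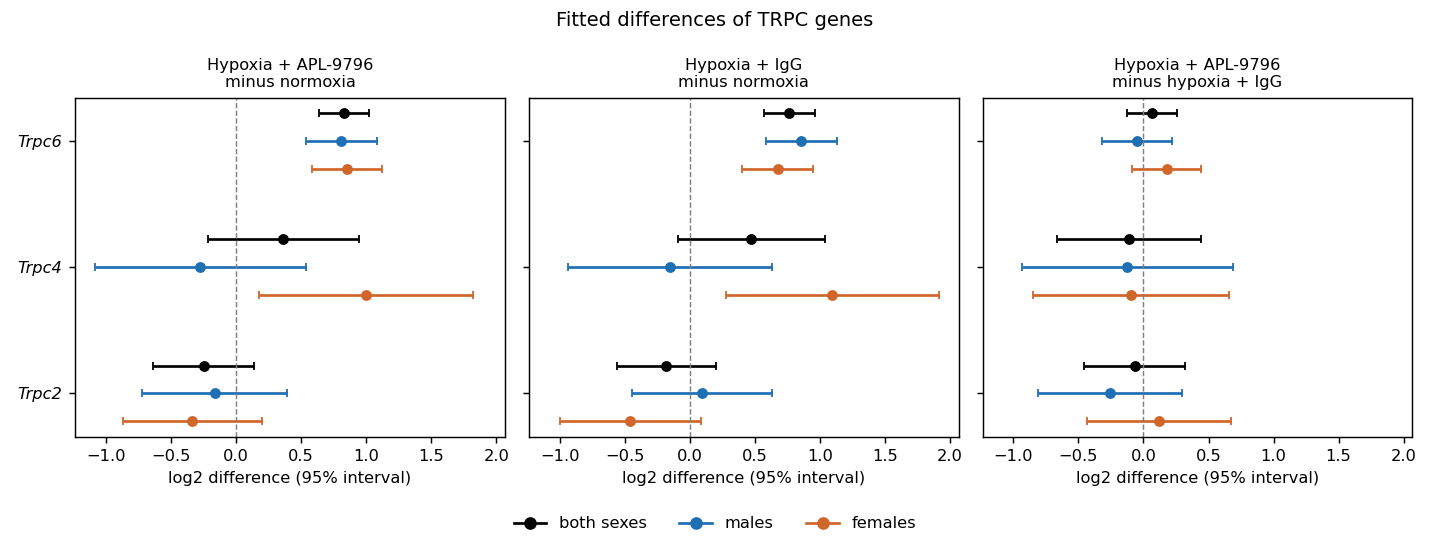
Fitted log2 differences of Trpc6, Trpc4 and Trpc2 with their 95% intervals, for both sexes together, males and females, in 3 comparisons that share 1 horizontal scale. Trpc6 lies between 0.67 and 0.86 in both sexes against normoxia. Between the antibodies it lies at 0.18 in females (-0.09 to 0.45) and at -0.05 in males (-0.32 to 0.22). Split by sex, Trpc4 lies above 0 against normoxia in females and below 0 in males, with wide intervals.

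By sex and arm, mean Trpc6 was highest in females with APL-9796 at 28.5 ± 3.62 CPM. It was next in males with IgG at 27.2 ± 3.65 CPM, then in males with APL-9796 at 26.3 ± 5.90 CPM, and then in females with IgG at 25.2 ± 3.97 CPM (SD, n = 6 each). Neighbours among these 4 groups differed by less than 1 SD. The 2 normoxic groups had the lowest means, 15.7 ± 2.22 CPM in females and 15.01 ± 2.12 CPM in males, and these too differed by less than 1 SD.

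Within males, Trpc6 rose by 0.86 ± 0.13 on the log2 scale with hypoxia and IgG (FDR 5.8e-05), where 3.1% of all genes were called (1.88% as higher and 1.22% as lower). Within females it rose by 0.67 ± 0.13 (FDR 0.00086), where 15.5% were called (7.23% as higher and 8.27% as lower). With APL-9796 against normoxia the rises were 0.81 ± 0.14 in males (FDR 0.00013, with 4.19% of genes called, 2.79% as higher) and 0.85 ± 0.13 in females (FDR 3.7e-05, with 22.6% called, 10.1% as higher). The female counts of called genes depended on single libraries and on the run. The 2413 genes called in females with IgG became 1256 without normoxic female 9, 3701 without normoxic female 7, 1607 without IgG female 7 and 99 in run A alone. The 3515 genes called in females with APL-9796 became 1861 without normoxic female 9, 2301 without normoxic female 8 and 918 without both. The difference between the sexes in the response to hypoxia was itself not called for Trpc6, at 0.18 ± 0.19 for males minus females (FDR 0.650), in a test that called 0.0128% of all genes, 0.00642% in each direction. Nor did the APL-9796 difference vary detectably with sex, at -0.23 ± 0.19 (FDR 0.963, with 0% of genes called and 685 at an unadjusted p under 0.05).

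The Trpc6 difference was also present within a sequencing run. In run A its median was 25.8 CPM in 7 IgG libraries and 15.97 CPM in 9 normoxic libraries, with no overlap (22.2 to 32.02 against 12.8 to 19.3 CPM). The 10 APL-9796 libraries of run A had a median of 28.8 CPM and a range of 24.1 to 34.5 CPM, also above the normoxic range. The share of all genes so separated within run A was not counted. Fitted in run A alone, Trpc6 rose by 0.66 with IgG (FDR 0.000124) and by 0.84 with APL-9796 (FDR 5.01e-07) against normoxia. For females of run A alone, with 2 IgG and 3 normoxic libraries, the IgG difference was 0.41 and was not called (FDR 0.289, in a range of 4.6e-05 to 0.289 over the 11 alternatives tried).

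Trpc4, a channel of lung endothelium whose loss in mice impairs the permeability response of lung microvessels, was near the limit of what these libraries can measure. It had 1 to 24 counts per library, which gives a counting error of 20.4 to 100% of the value. Its mean was 0.991 ± 0.416 CPM with APL-9796, 1.06 ± 0.452 CPM with IgG and 0.830 ± 0.491 CPM in normoxia (SD, n = 12 each). The log2 difference over both sexes was 0.47 ± 0.28 with IgG (FDR 0.289) and 0.36 ± 0.28 with APL-9796 (FDR 0.396) against normoxia, neither called.

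In females, Trpc4 had 79 counts over the 6 APL-9796 libraries and 83 over the 6 IgG libraries, against 41 over the 6 normoxic libraries. Over the raw library totals, these pooled counts correspond to 1.12 CPM with APL-9796 (exact Poisson 95% interval 0.889 to 1.40), 1.22 CPM with IgG (0.971 to 1.51) and 0.529 CPM in normoxia (0.380 to 0.718). These intervals cover counting error only. Of the female libraries, 4 of 6 with APL-9796 and 5 of 6 with IgG lay above the highest female normoxic library at 1.06 CPM. The fitted female differences were 1.001 ± 0.41 with APL-9796 (FDR 0.0700) and 1.10 ± 0.40 with IgG (FDR 0.0589), which edgeR did not call. DESeq2 called the IgG difference at 1.12 (FDR 0.0424, in a range of 0.0424 to 0.330 over 10 alternatives). It was also called, at 1.10 to 1.28, when IgG male 2, IgG male 5, normoxic male 4 or normoxic female 12 was left out. The APL-9796 difference was called, at 1.01 to 1.18, without IgG male 2, APL-9796 female 7 or normoxic female 12. In males the differences were -0.27 ± 0.40 with APL-9796 and -0.15 ± 0.39 with IgG, and the sex difference in the IgG response was -1.24 ± 0.56 (unadjusted p 0.0325, FDR 0.269).

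Trpc2, in rodents the channel of pheromone-sensing neurons of the vomeronasal organ, also had few counts and did not pass the test in any comparison. It ran from 0.754 to 1.82 CPM with APL-9796 (median 1.28), from 0.480 to 2.18 CPM with IgG (median 1.42) and from 0.684 to 1.97 CPM in normoxia (median 1.65). The log2 difference from normoxia was -0.25 ± 0.19 with APL-9796 (FDR 0.382) and -0.18 ± 0.19 with IgG (FDR 0.576). With APL-9796 it was -0.34 ± 0.26 in females and -0.16 ± 0.27 in males, and with IgG -0.45 ± 0.27 in females and 0.09 ± 0.27 in males, none of them called. The strand setting of the counting is not stated in the labels or files, so reads of genes that overlap a Trpc gene could not be separated from it.

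Trpc5 and Trpc7 were at the edge of detection. Trpc5, a relative of Trpc4, gave 12 counts in 6 libraries with APL-9796, 7 counts in 4 libraries with IgG and 7 counts in 4 libraries in normoxia. Its pooled levels were 0.0938 CPM with APL-9796 (0.0485 to 0.164), 0.0508 CPM with IgG (0.0204 to 0.105) and 0.0491 CPM in normoxia (0.0197 to 0.101), with overlapping intervals. Trpc7, a relative of Trpc6, gave 1 count with APL-9796, 7 counts in 5 libraries with IgG and 4 counts in 2 libraries in normoxia. Its pooled levels were 0.00782 CPM with APL-9796 (0.000198 to 0.0435), 0.0508 CPM with IgG (0.0204 to 0.105) and 0.0281 CPM in normoxia (0.00764 to 0.0718), again overlapping. A count of 0 in a library allows up to 0.144 to 0.494 CPM at these depths, so absence from a library was not shown for either gene.

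Averaged over the arms, none of Trpc2, Trpc4 and Trpc6 differed between males and females by edgeR, in a comparison that called 1.65% of all genes, 1.01% as higher in males and 0.636% as lower. The log2 difference of males minus females was -0.02 ± 0.077 for Trpc6, 0.12 ± 0.23 for Trpc4 and 0.05 ± 0.16 for Trpc2, with FDRs of 0.813 to 0.895.

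Because whole lung was sequenced, the markers of vessel wall cells are given beside Trpc6. All 5 smooth muscle markers that could be tested (Cnn1, Myl9, Lmod1, Actg2 and Des) rose with hypoxia and IgG, by 0.55 to 0.88 on the log2 scale, and their median was 0.70 where that of all genes tested was -0.02 and 6.31% of all genes were called higher. In run A alone 2 of the 5 were called, with a median of 0.66. Without the 3 libraries rich in fat or muscle transcripts all 5 were called, with a median of 0.63. The other 5 markers of the list are not analysed here. Summed over these 5 genes, the level was 346 to 738 CPM with APL-9796, 373 to 607 CPM with IgG and 137 to 394 CPM in normoxia. All hypoxic libraries but IgG female 9 (373 CPM) and APL-9796 female 10 (346 CPM) lay above the highest normoxic library (394 CPM). The highest sums with APL-9796 and with IgG were those of APL-9796 male 5 and IgG female 11, both rich in fat or muscle transcripts. APL-9796 male 4, not among those libraries, was at 736 CPM. Of 5 pericyte markers, Notch3, Higd1b and Kcnj8 rose, Rgs5 fell, and Cspg4 differed by 0.31 and was not called. Of these pericyte calls, 1 higher and 1 lower were made in run A alone. Their sum was 352 to 575 CPM with APL-9796, 294 to 523 CPM with IgG and 187 to 430 CPM in normoxia. None of these 10 markers was at 0.

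Trpc6 per 1000 CPM of summed smooth muscle markers had a median of 53.5 with APL-9796, 51.7 with IgG and 48.7 in normoxia. Its ranges overlapped, at 20.7 to 86.2 with APL-9796, 33.4 to 72.3 with IgG and 32.9 to 142 in normoxia. The order of the arms differed by sex: in females the median was 62.8 with APL-9796, 51.3 with IgG and 69.2 in normoxia, and in males it was 47.1 with APL-9796, 51.7 with IgG and 43.0 in normoxia. Per 1000 CPM of pericyte markers the Trpc6 medians were 62.1 with APL-9796, 65.3 with IgG and 48.4 in normoxia, with normoxia lowest in both sexes. The lowest smooth muscle ratio was that of APL-9796 male 4 and the highest that of normoxic female 9, in which the summed smooth muscle markers were lowest of all at 137 CPM. Fitted without normoxic females 8 and 9, Trpc6 rose by 0.80 with IgG and by 0.87 with APL-9796, and both were called. The part of smooth muscle and pericyte transcripts in the Trpc6 difference was not tested.

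**Figure D3:**
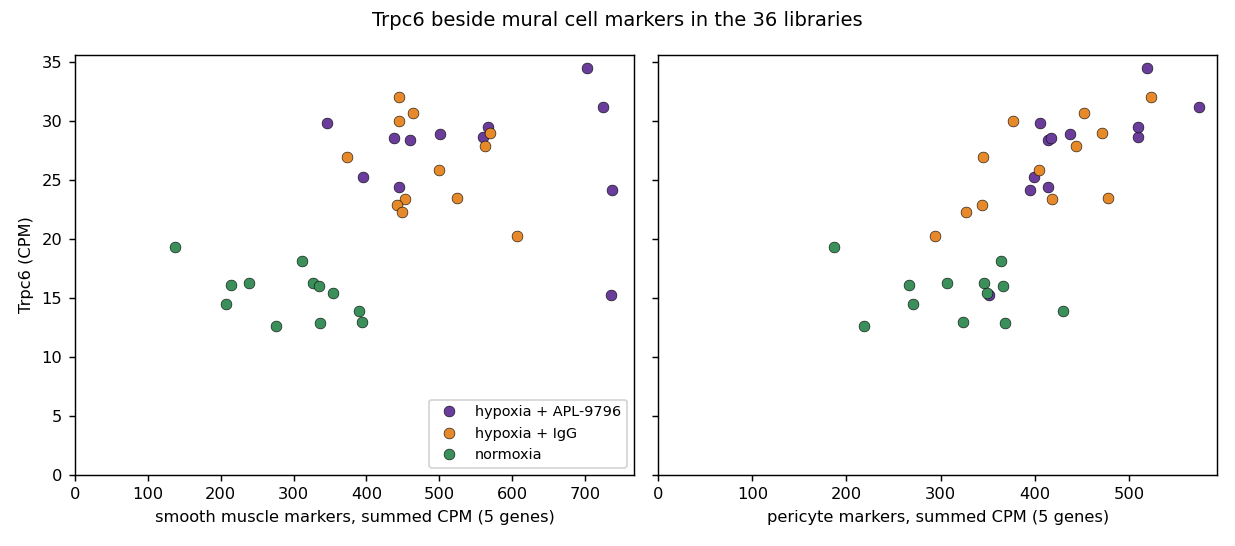
Trpc6 level in CPM against the summed CPM of 5 smooth muscle markers and of 5 pericyte markers, 1 point per library, coloured by arm, with linear axes that start at 0. All 12 IgG libraries and 11 of the 12 APL-9796 libraries lie above the highest normoxic library in Trpc6. In summed smooth muscle markers, all hypoxic libraries but IgG female 9 (373 CPM) and APL-9796 female 10 (346 CPM) lie above the highest normoxic library (394 CPM). The arms overlap more widely in the summed pericyte markers. The exception in Trpc6, at 15.2 CPM of Trpc6 and 736 CPM of smooth muscle markers, is APL-9796 male 4. In Trpc6 it lies above 5 of the 12 normoxic libraries.

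Markers of other cells moved with hypoxia and IgG as well, and their part in the Trpc results was not tested. In that comparison 6.31% of all genes were called higher and 6.19% lower. Of 8 endothelial markers 5 rose and 2 fell, of 6 fibroblast markers 3 rose, and of 4 adipocyte markers 3 rose (1 without the 3 libraries rich in fat or muscle transcripts, 2 without normoxic females 8 and 9, and 1 with the run as a term or in run A alone). In run A alone 0 fibroblast markers were called, at a list median of 0.44 in both fits. All 3 platelet markers and 3 of 4 alveolar type II markers fell, and 1 of each fell without normoxic females 8 and 9. In run A alone 0 platelet markers and 1 alveolar type II marker were called. None of 5 T cell, 2 macrophage, 3 cardiac muscle or 3 skeletal muscle markers was called by edgeR. With APL-9796 against normoxia 2 of 5 T cell markers fell, where 9.08% of all genes were called higher and 8.93% lower, and 2 of 3 skeletal muscle markers rose (0 without the 3 libraries, and 1 without normoxic females 8 and 9 or in run A alone). Summed endothelial markers ran from 3446 to 4371 CPM with APL-9796, from 3231 to 4294 CPM with IgG and from 2674 to 3764 CPM in normoxia. Summed fibroblast markers ran from 2547 to 5462 CPM with APL-9796, from 3703 to 6792 CPM with IgG and from 1183 to 4967 CPM in normoxia. Summed platelet markers ran from 10.3 to 34.5 CPM with APL-9796, from 10.7 to 19.9 CPM with IgG and from 11.05 to 46.0 CPM in normoxia. Summed adipocyte markers ran from 142 to 297 CPM with APL-9796, from 139 to 461 CPM with IgG and from 83.3 to 189 CPM in normoxia.

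The genes most like each member were ranked by Pearson's r of log2 CPM over the 36 libraries, after the mean of each sex and arm was taken off. The libraries share depth and composition, so these values are a description. For Trpc6 the closest of 8726 genes were Gucy1b1, a subunit of the nitric oxide receptor guanylate cyclase (r = 0.785), Xpr1, a phosphate exporter (0.782), Tgfbr2, a receptor of TGF-beta (0.780), Ttyh2 (0.773) and Postn, the matrix protein periostin (0.769). Of these, Gucy1b1, Tgfbr2 and Postn also rose with hypoxia and IgG, by 0.43 ± 0.081, 0.40 ± 0.054 and 0.38 ± 0.080, whereas Xpr1 differed by -0.0013 ± 0.095 and Ttyh2 by 0.22 ± 0.12 and were not called. The highest r was 0.627 for Trpc4, to Fscn3, and 0.548 for Trpc2, to Stau1.

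Around the channels, the genes of Gq and phospholipase C signalling, which gate TRPC channels, moved in both directions. With hypoxia and IgG against normoxia, 4 of 15 tested genes rose and 2 fell, with a list median of -0.05, where 6.31% of all genes were called higher and 6.19% lower (median -0.02). Plcb1, a phospholipase C isoform activated by Gq, averaged 126 ± 18.7 CPM with IgG and 56.5 ± 11.1 CPM in normoxia, a rise of 1.16 ± 0.088 (FDR 3.3e-12). Plcg1, Gna11 and Plcb2 rose by 0.27 to 0.29. The Gq-family subunit genes Gna14 and Gnaq fell by 0.60 and 0.21. In the APL-9796 arm 5 rose and 2 fell against normoxia, where 9.08% of all genes were called higher and 8.93% lower. These included Itpr3, an intracellular calcium release channel (0.40), and Plcg2 (-0.24), while Gnaq was at -0.10 and not called. In run A alone 2 rose and 1 fell with IgG, and 1 fell rather than 2 with IgG without the 3 libraries rich in fat or muscle transcripts. With APL-9796, 4 rose and 1 fell both in run A alone and without normoxic females 8 and 9.

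Among the receptors that couple to Gq in vessels, 2 of 13 rose and 2 fell with hypoxia and IgG, beside 6.31% of all genes called higher and 6.19% lower. P2ry2, a receptor of extracellular nucleotides, averaged 69.4 ± 11.6 CPM with IgG and 36.8 ± 4.78 CPM in normoxia, a rise of 0.91 ± 0.096. Tbxa2r, the thromboxane receptor, rose by 0.84 ± 0.13. Htr2b, a serotonin receptor, fell by 0.85 ± 0.19, and Ednrb, an endothelin receptor, fell by 0.21 ± 0.055. Against normoxia with APL-9796, P2ry2 and Tbxa2r rose by 1.10 and 0.76, and Htr2b and Ednrb, at -0.48 and -0.06, were not called. With IgG, 4 rose without normoxic females 8 and 9, in run A alone none fell, and 1 fell without the 3 libraries rich in fat or muscle transcripts.

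Of the transcripts of 11 proteins known to bind or regulate TRPC channels, 2 rose and 1 fell with hypoxia and IgG. Of all genes 6.31% were called higher and 6.19% lower, and nothing particular to the partners is read from these counts. Nherf2, a scaffold, rose by 0.53 ± 0.088, Homer3, a scaffold, rose by 0.38 ± 0.10, and Rnf24, a trafficking protein, fell by 0.53 ± 0.15. Fyn, a kinase that phosphorylates TRPC6, was at 0.16 with IgG (FDR 0.0552) and rose by 0.20 with APL-9796 (FDR 0.0101). In run A alone 1 partner rose and 0 fell with IgG. Store-operated entry, a further calcium entry route in smooth muscle, had 0 of 7 genes called with IgG, where 12.5% of all genes called would be under 1 gene of 7, and Stim1 and Stim2, the store sensors, were at -0.04 and 0.07. Saraf, an inhibitor of that route, fell by 0.18 with APL-9796 against normoxia. That call was absent with the run as a term, in run A alone, without normoxic females 8 and 9, and without the 3 libraries.

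Of 9 tested genes of other TRP channels, 2 were called with hypoxia and IgG, both lower, where 6.31% of all genes were called higher and 6.19% lower. Trpm5 and Trpm4, both calcium-activated cation channels, fell by 0.35 and 0.31. Of these 2 calls, 0 were made in run A alone or without the 3 libraries rich in fat or muscle transcripts, and 1 with the run as a term or without normoxic females 8 and 9. Trpa1 rose by 0.58 with APL-9796 against normoxia and Trpv4 by 0.27, and Trpm5 fell by 0.41. With IgG, Trpa1 was at 0.36 and Trpv4 at 0.14, neither called. The 2 rises with APL-9796, where 9.08% of all genes were called higher, became 1 with the run as a term, in run A alone and without normoxic females 8 and 9. The 1 gene lower with APL-9796 became 0 in run A alone and 2 without normoxic females 8 and 9.

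Voltage-gated calcium channel genes, whose channels open when cation entry depolarises the cell, had a list median of 0.22 with hypoxia and IgG. Of 10 tested genes 4 rose: Cacna1h (T-type) by 0.71, Cacna2d3 by 0.76, Cacnb3 by 0.36 and Cacna1c (L-type) by 0.44, where 6.31% of all genes were called higher. With APL-9796 against normoxia 6 rose, those 4 with Cacna2d1 and Cacnb1, where 9.08% of all genes were called higher. The list median was then 0.41. Cacnb1 varied widely, at 3.46 ± 3.58 CPM with APL-9796 and 2.05 ± 0.509 CPM in normoxia (SD), with an edgeR FDR of 0.0404. Without normoxic females 8 and 9, 4 rose with APL-9796 (median 0.32) and 3 with IgG (median 0.12). Without the 3 libraries rich in fat or muscle transcripts, 5 rose with APL-9796 and 4 with IgG. In run A alone 4 were called with APL-9796 and 0 with IgG, at medians of 0.44 and 0.28. Of genes that clear calcium 0 of 4 were called with IgG, and Slc8a1, the sodium-calcium exchanger, rose by 0.28 with APL-9796. The Slc8a1 call was absent with the run as a term and without normoxic females 8 and 9. Of 11 genes of calcineurin and its transcription factors, which respond to sustained calcium, 1 was called with IgG, a share no higher than the 12.5% of all genes. That gene, Nfatc4, rose by 0.67 ± 0.15 with IgG and by 0.71 with APL-9796, and in run A alone it was not called with IgG. Between APL-9796 and IgG, edgeR called none of the 80 tested genes of these 8 lists. It called 0 of all 15570 genes there, so nothing particular to the lists is read from this.

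**Figure D4:**
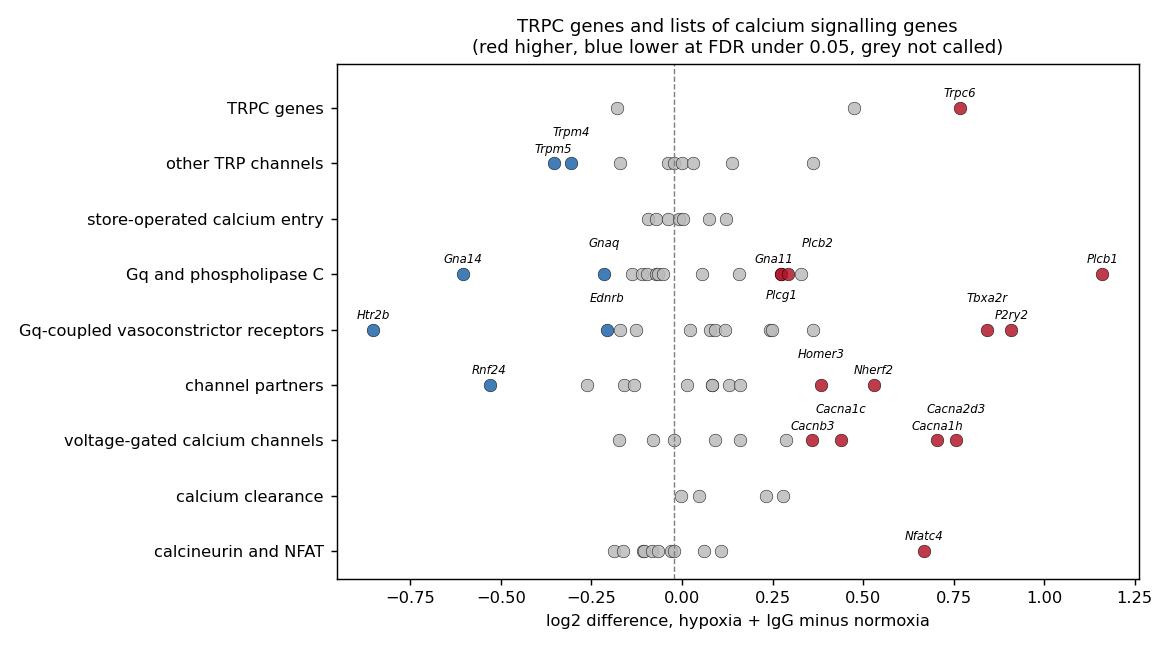
Log2 differences between hypoxia with IgG and normoxia for Trpc6, Trpc4 and Trpc2 and for 8 lists of calcium signalling genes, 1 point per gene on 1 scale. Red and blue points are genes called higher and lower at FDR under 0.05, grey points were not called, and the dashed line is the median of all genes tested at -0.02. Trpc6 stands at 0.77, and the lists hold calls on both sides of the line.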

How the data were processed

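The authors deposited raw read counts per gene for 36 rat lung libraries. The sources used here give no aligner, counter, genome build or strand setting, and DESeq2 1.24.0 is named per the submitters' processing notes. No gene lengths came with the counts, so levels were compared between libraries and not between genes. A row of totals held 0 counts (0.0%) and was left out. An item that the rule selects is not reported here. The Trpc members and all gene lists were chosen with earlier results of these data known. Current symbols were taken from RefSeq names for 11119 genes of the table.

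Counts were analysed with edgeR 4.0.16 in R 4.3.3, using TMM library scaling, filterByExpr, which kept 15570 genes, and robust quasi-likelihood tests over 6 groups of sex and arm. Arms were contrasted with the sexes weighted equally. CPM of single libraries, and means and medians of these, use the TMM-scaled totals. Pooled levels, their Poisson intervals and the limits from 0 counts use the raw totals, so they are on a slightly different scale. Script code ran in Python 3.11.15 with pandas 2.3.3 and matplotlib 3.10.9, and the fit was tested on simulated data. Alternatives were DESeq2 1.42.0, limma 3.58.1 (voom), other scaling and filters, fits with the other groups left out, a block for replicate number, the sequencing run, and each library left out. List counts by run and without the libraries that stood apart were chosen after seeing the data. Poisson intervals and limits from 0 counts (3 counts) cover counting error only. From each list the text names up to 4 genes of smallest p for IgG-treated hypoxia against normoxia and any gene called in another comparison. For likeness it names the 5 genes of highest r with a mean of at least 1 CPM (prior count 2). Over 90 pairs of libraries of the same sex and arm, Spearman's rho ran from 0.937 to 0.995, and every pair differed by more than counting noise.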

Additional observations from a re-analysis of the deposited data

Results flagged for a closer look

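Trpc2 had 1 library far from the rest of its group in 2 of the 18 gene-by-group sets checked. In females with hypoxia and IgG, replicate 8 had 0.480 CPM, where the other 5 ran from 1.13 to 1.46 CPM, and its gap to the next library took up 0.664 of the group's range. In normoxic females, replicate 8 had 0.684 CPM, where the other 5 ran from 1.62 to 1.97 CPM, a gap of 0.733 of the range. These levels rest on 4 and 6 counts. Chance marks about 1 in 20 groups by this rule, and no cause was tested.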

How the results depend on the processing

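Trpc6 kept its direction and its call over both sexes in all 11 alternatives and all 36 fits with 1 library left out. Its log2 difference ran from 0.66 to 0.83 with IgG and from 0.80 to 0.87 with APL-9796 against normoxia, and over the left-out libraries from 0.75 to 0.82 and from 0.81 to 0.89. With a replicate block it was 0.76 (edgeR FDR 6.77e-06) and 0.83 (FDR 1.80e-06). Expression showed no clear pairing by replicate number: 36 pairs correlated at -0.216 to 0.254, 9 of them over 0.1, and 14 of 72 matches were best with their own number. These values do not settle whether the design paired the libraries. No block could be fitted for males minus females, whose numbers do not overlap.

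Counts over all genes moved more. Genes called with IgG against normoxia numbered 725 in run A alone, against 1947, and 1523 to 2298 with 1 library left out. With APL-9796 against normoxia the left-out range was 2260 to 3633. DESeq2 called 1 gene between APL-9796 and IgG. In females the 2413 genes with IgG became 610 with the compared groups only, 1607 with the run as a term, 99 in run A and 968 without normoxic females 8 and 9, and 1256 to 3701 with 1 library left out. The 3515 with APL-9796 became 945 with the compared groups only, 1203 in run A and 918 without those females, and 1861 to 4733 with 1 library left out. In males the 483 with IgG became 1066 by limma-voom, 781 with the compared groups only and 754 without those females, and the 652 with APL-9796 became 1234 by limma-voom. Males minus females gave 607 genes by DESeq2, 1340 by limma-voom, 553 with the run as a term, 141 in run A, and 153 to 874 with 1 library left out. The sex difference in the hypoxia response gave 53 by DESeq2, 431 by limma-voom, 1 with the replicate block, 0 without the low-count filter, by run, in run A, or without the libraries that stood apart, and 0 to 560 with 1 library left out, the 560, the 874 and the 3633 all without normoxic female 7.

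Some differences near 0 changed sign, none of them called, and the cause was not tested. By limma-voom these were Trpc4 sex by APL-9796 (0.10) and Trpc4 and Trpc6 males minus females (-0.089 and 0.046). With the replicate block it was Trpc4 sex by APL-9796 (0.00331). With the run as a term it was Trpc2 males minus females (-0.021). In run A they were Trpc2, Trpc4 and Trpc6 males minus females (-0.027, -0.058 and 0.0365), Trpc4 sex by APL-9796 (0.25) and Trpc4 between antibodies (0.036). Without the 3 libraries rich in fat or muscle transcripts they were Trpc2 between antibodies (0.032) and Trpc4 sex by APL-9796 (0.11). With 1 library left out, differences between antibodies ran from -0.15 to 0.0056 for Trpc2 and -0.22 to 0.035 for Trpc4. Males minus females ran from -0.0063 to 0.10 for Trpc2 and -0.050 to 0.0084 for Trpc6. Sex by APL-9796 ran from -0.24 to 0.26 for Trpc4. Male differences with IgG ran from -0.028 to 0.27 for Trpc2 and -0.41 to 0.074 for Trpc4. Depth limits Trpc2, Trpc4, Trpc5 and Trpc7, with at most 37 counts in any library.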
